A study of Mus musculus with 6 samples.

Results

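The serpins are a large family of protease inhibitors, and the liver is the source of most of those in plasma. The genes described here are all those on the array whose symbol is Serpin followed by a clade letter from a to i and a number, which gave 62 genes, measured by 79 probes, of 24239 genes on the array. Liver RNA came from male B6C3F1 mice labelled as 7 weeks of age. The 3 control mice received corn oil by mouth for 5 days, and the 3 TCE mice received trichloroethylene (TCE) in the same oil, at 1000 mg/kg b.w., on the same days. Each mouse had its own single-colour microarray, no animals were pooled, and all mice were of the same F1 cross. RNA was of whole liver, so fewer cells of a type and less RNA per cell cannot be told apart.

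A serpin presents an exposed reactive loop as bait. When a protease cuts the loop, the serpin changes shape and traps the enzyme in a covalent complex, so that both molecules are used up. Letters of the clades follow sequence relationship. Clade A holds secreted proteins of hepatocytes, among them the antitrypsins (Serpina1 paralogs), the antichymotrypsin relatives (Serpina3 paralogs) and carriers of hormones that inhibit no protease. Clade B members stay inside cells and protect them from their own or foreign granule proteases. The other clades are small and include antithrombin (Serpinc1), heparin cofactor II (Serpind1), protease nexin-1 (Serpine2), the antiplasmin (Serpinf2), the complement C1 inhibitor (Serping1) and a collagen chaperone (Serpinh1). In rodents the antitrypsin and antichymotrypsin genes have multiplied, so that several near-identical copies lie side by side.

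The probes of the genes with the largest differences are shown first, because each value below rests on 1 or 2 such sequences. Each line gives the first 30 of the 60 bases of the probe, in lower case, with the gene it was designed for.
Serpina7: ttactgcagaaaggatgggttgaattgttt
Serpina9: ctcagtacctttgcttttatggctggctcc
Serpina12: gtacaatattttcccaggatagttaacaag
Serpina4-ps1: gggtttgaaagtgggagagaccctcctagg
On the mouse build mm9 the array annotation places these probes at chrX:135615848-135616502 (Serpina7), chr12:105234830-105234889 (Serpina9), chr12:105267099-105267158 (Serpina12) and chr12:105325060-105325119 (Serpina4-ps1). The Serpina7 probe covers more genome than its own length because it spans a splice junction in that annotation.

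Detection required that all 3 mice of a group, control or TCE, gave a signal well above background, and 35 of the 62 serpin genes had a probe of this kind, against 13284 of all genes. Where a gene had several, the brightest of them on average was used. Values are log2 of the background-corrected and quantile-normalized intensity, and they can be compared between mice for a probe but not between probes. The comparison asked which serpin messages differed in the liver after TCE, with the linear model of limma (two-sided) and Benjamini-Hochberg adjustment over all detected probes of the array. The threshold required both an adjusted p no higher than 0.05 and a change of at least 2-fold. All 9 hepatocyte markers on the array were detected, and albumin (Alb), the brightest, was at 18.69 ± 0.05 (SD, n = 3) in control and 18.51 ± 0.30 (SD, n = 3) in TCE mice. Between 23538 and 24968 probes per array were well above background, and Pearson's r between mice, across detected probes, was 0.971 to 0.990. Control mouse 1 was alone on its slide and in its scan, while a second slide held the other 5.

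Serpina7 rose and Serpina9 and Serpina12 fell, and these were the serpins past the threshold. The single rise was 1 of 35 detected serpin genes, against 1.30% of all detected genes that were past the threshold and higher. The falls were 2 of 35, against 0.429% of all detected genes that were past it and lower. Serpina12 counts as detected only through the control mice. All 3 genes are in clade A, where 21 of 25 genes were detected. Of all 35 genes, 22 had a negative and 13 a positive log2 fold change, and 21 lay within 0.5 of 0. Of all detected genes, 46.9% had a negative one. The median log2 fold change of the detected serpin genes was -0.15, and that of all detected genes was 0.02.

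**Figure D1:**
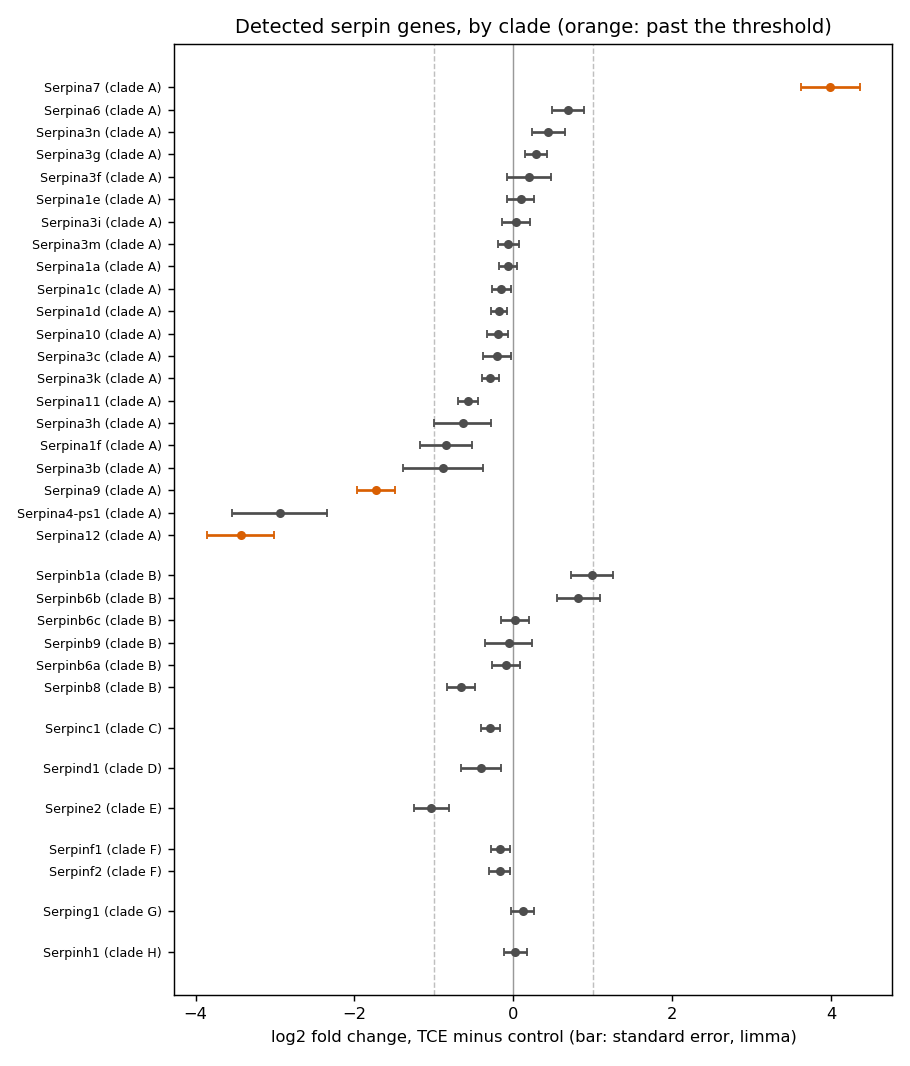
Log2 fold change (TCE minus control, horizontal axis) of the detected serpin genes named in the text, grouped by clade, with the standard error of limma as bars, dashed lines at a 2-fold change and genes past the threshold in orange. Serpina7 at 3.99 stands far to the right, while Serpina12, Serpina4-ps1 and Serpina9 stand to the left, and the single genes of clades C, D, G and H lie within 0.5 of 0.

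Serpina7 encodes thyroxine-binding globulin, the plasma carrier of thyroid hormone, which has kept the serpin fold but inhibits no protease. Its log2 signal was 7.81, 8.22 and 6.88 in control mice 1 to 3 and 11.96, 11.21 and 11.72 in TCE mice 1 to 3. Every TCE mouse was above every control mouse, with a gap far wider than the spread within either group, and the probe was well above background on all 6 arrays. The log2 fold change was 3.99 (SE 0.37), a 15.9-fold higher signal in TCE mice, with an adjusted p of 0.00739 by limma. When each mouse was left out in turn, the log2 fold change lay between 3.61 and 4.28 and the adjusted p between 0.0148 and 0.0357. Without the filter on dim probes the adjusted p was 0.0629.

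The other serpin that carries a hormone is Serpina6, corticosteroid-binding globulin. Its brighter probe read 15.10, 14.50 and 14.73 in control and 15.72, 15.41 and 15.25 in TCE mice. The groups did not overlap, with a log2 fold change of 0.68 (SE 0.20), but the adjusted p was 0.158 by limma. Its second probe overlapped between groups, with a log2 fold change of 0.43 (adjusted p 0.476). In the list of other hormone carriers and genes of thyroid and glucocorticoid hormone handling, 12 of 15 genes were detected and 0 passed the threshold by limma, while 2 of the 12 had an unadjusted p under 0.05, a share near the 19.1% of all detected genes. The median log2 fold change of that list was -0.03, and transthyretin (Ttr), another plasma carrier of thyroxine, was 17.53, 17.77 and 17.81 in control and 17.86, 17.90 and 17.78 in TCE mice, with overlapping groups.

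Serpina12 encodes vaspin, a serpin first known from visceral adipose tissue that inhibits a tissue kallikrein. Its signal was 6.95, 6.94 and 7.01 in control mice, where all 3 arrays were well above background. In TCE mice it was 3.74, 4.30 and 2.54, and 0 of 3 arrays were well above background, so only a bound can be given. Against the lowest signal that counted as well above background on those arrays, Serpina12 was at least 4.6-fold lower in TCE mice under quantile normalization. The adjusted p of 0.0191 by limma belongs to the measured log2 fold change of -3.44, which rests on those TCE values, and not to the bound. With normexp the log2 fold change was -1.27 (adjusted p 0.00874), smaller in size than that bound. Normexp is a background correction whose added offset of 50 shrinks the differences of such dim probes by construction. Without the filter on dim probes the adjusted p was 0.106. Leaving out single mice gave adjusted p values from 0.0093 to 0.0881, and the gene was past the threshold only without TCE mouse 2 or TCE mouse 3. The adjusted p was 0.0711 without control mouse 1, 0.0881 without control mouse 2, 0.0814 without control mouse 3 and 0.0709 without TCE mouse 1.

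The adipocyte markers were near background in these livers, and 6 of 7, among them Adipoq, Lep, Plin1 and Retn, were not detected. The summed intensity of that list was 133 to 177 in control and 411 to 628 in TCE mice. Most of that sum came from its single detected gene, Cidec, a lipid droplet protein that fatty liver cells also make, which rose with a log2 fold change of 1.97 (SE 0.17, adjusted p 0.00553). The part of adipocytes in the Serpina12 result was not tested.

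Serpina9 encodes centerin, known from germinal centre B cells. Its signal was 9.43, 9.31 and 9.65 in control and 7.26, 7.79 and 8.13 in TCE mice, and all 6 arrays were well above background. The groups did not overlap and the log2 fold change was -1.73 (SE 0.24), a 3.32-fold lower signal, with an adjusted p of 0.0266. With single mice left out the adjusted p ranged from 0.0291 to 0.0989, and it stayed at 0.05 or less only without TCE mouse 1 or TCE mouse 3. The value was 0.0882 without control mouse 1, 0.0962 without control mouse 2, 0.0989 without control mouse 3 and 0.0691 without TCE mouse 2. Without the filter on dim probes it was 0.114. Of the B cell and germinal centre markers, 4 of 9 were detected and none passed the threshold, and Ms4a1 and Pax5 were among those not detected. Their summed intensity was 3640 to 11500 in control and 4470 to 5770 in TCE mice. Most of that sum came from a single gene, the brightest of the list, whose groups overlapped. The part of B cells in the Serpina9 result was not tested.

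Serpina4-ps1, a transcribed pseudogene related to the kallikrein inhibitor kallistatin, had the second largest negative value but did not pass. Its signal was 14.41, 13.77 and 16.20 in control and 11.63, 12.13 and 11.78 in TCE mice. The groups did not overlap, and control mouse 3 was well above the other controls. The log2 fold change was -2.94 (SE 0.60, adjusted p 0.0736). A second probe, which starts 8 bases away and shares 51 of 52 aligned bases, gave -2.95 (SE 0.53, adjusted p 0.0555), and since both read nearly the same stretch they are not separate measurements. Without control mouse 3 the log2 fold change was -2.24, smaller in size, and the adjusted p was 0.0424, past the threshold. The methods' t-test, which the study applied without adjustment at the same fold, called this gene too.

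**Figure D2:**
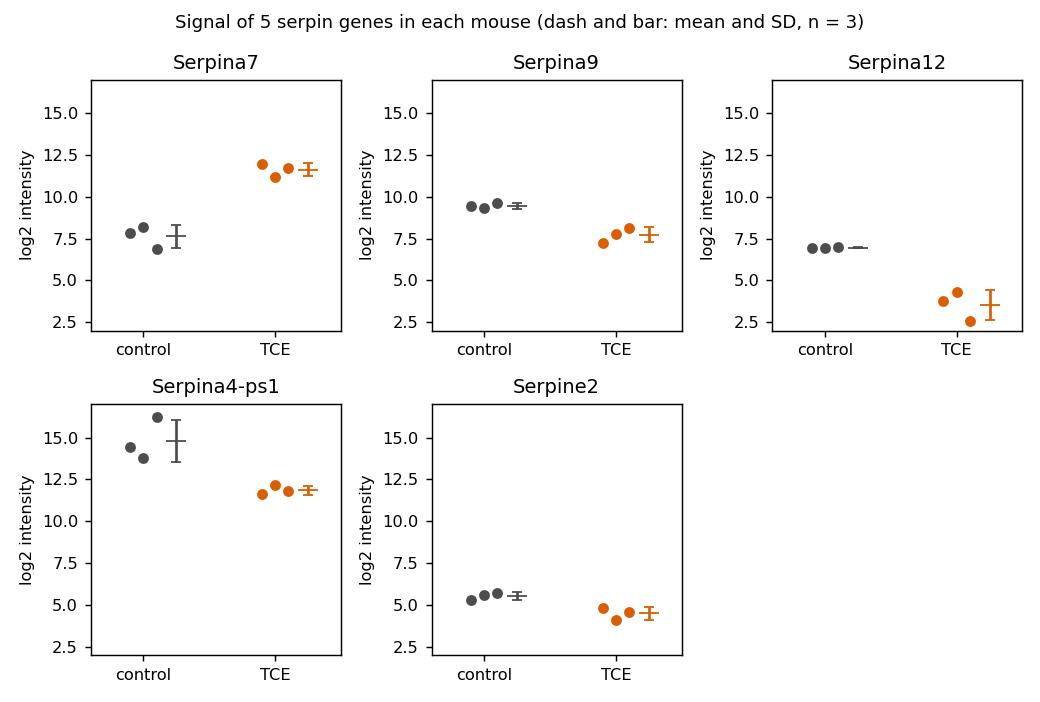
Log2 intensity of 5 serpin genes in each control mouse (grey) and TCE mouse (orange), with the mean and SD of each group (n = 3) beside the points. Serpina7 is higher in all 3 TCE mice, Serpina9, Serpina12 and Serpina4-ps1 are lower in all 3, and in Serpina4-ps1 control mouse 3 sits apart from the other controls.

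The methods' t-test called 1 serpin gene higher (Serpina7), against 2.15% of all detected genes, and 4 lower, against 0.949%. The 4 were Serpina12, Serpina9, Serpina4-ps1 and Serpine2. Serpina12 and Serpine2 were detected only through the control mice. For Serpine2 the bound was 1.62-fold, under the 2-fold limit, so its call rests on TCE values not well above background. With Benjamini-Hochberg adjustment the methods' t-test called 0 serpin genes. At an unadjusted p under 0.05 by limma there were 13 of 35 serpin genes, against 19.1% of all detected genes.

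Groups that do not overlap were more common among lower than among higher serpins. All TCE mice lay below all control mice for 12 of 35 detected serpin genes, against 10.8% of all detected genes, and above them for 5, against 17.1%. The 12 were Serpina1d, Serpina1f, Serpina3k, Serpina4-ps1, Serpina9, Serpina10, Serpina11, Serpina12, Serpinb8, Serpinc1, Serpine2 and Serpinf1. Some of these separations were slight. The lowest control and highest TCE values were 15.381 and 15.379 for Serpina10, 5.490 and 5.482 for Serpina1f, and 15.847 and 15.834 for Serpinf1. The second probes of Serpina10, Serpina11 and Serpinf1 overlapped between groups. Of the 12, Serpina12 and Serpine2, with 0 of 3 TCE arrays well above background, and Serpina1f, with 1 of 3, were detected only through the control mice. The shares of all detected genes also include genes detected through 1 group only. Among the 5 were Serpina3g, Serpina6, Serpina7 and Serpinb1a. An exact permutation test of 3 against 3 mice cannot go below p = 0.1 (two-sided), so a complete separation alone does not pass 0.05. The genes were measured in the same 6 mice and are not independent of each other.

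Serpina9 and Serpina12, the genes that fell, are neighbours. On mm9, 24 serpin genes with a probe formed a cluster on chromosome 12, and in the order of the probes the ninth to the thirteenth were Serpina11, Serpina9, Serpina12, Serpina4-ps1 and Serpina5. Their probes spanned 126 kb, from 105218465 to 105344233 for the probes that stand for the genes, and the 6 probes that the array holds in that stretch all belonged to these serpins. Serpina11, a serpin of unknown target, read 15.58, 15.52 and 15.41 in control and 14.89, 15.09 and 14.80 in TCE mice. Its groups did not overlap, with a log2 fold change of -0.58 (SE 0.13, adjusted p 0.0886). Serpina5, the protein C inhibitor, was not detected under the rule used, since 2 control arrays and 1 TCE array were well above background. It read 4.99, 7.43 and 6.88 in control and 4.69, 5.53 and 3.92 in TCE mice, with overlapping groups.

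The 16 other detected genes of the cluster had log2 fold changes from -0.89 (Serpina3b) to 0.68 (Serpina6), and none of them passed the threshold. Serpina1e, the neighbour on one side, had a log2 fold change of 0.09, with values that turned negative under other scalings. Serpina3a, the neighbour on the other side, was not above background on any array. This order was seen after the values were known, and the arrangement was not tested.

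**Figure D3:**
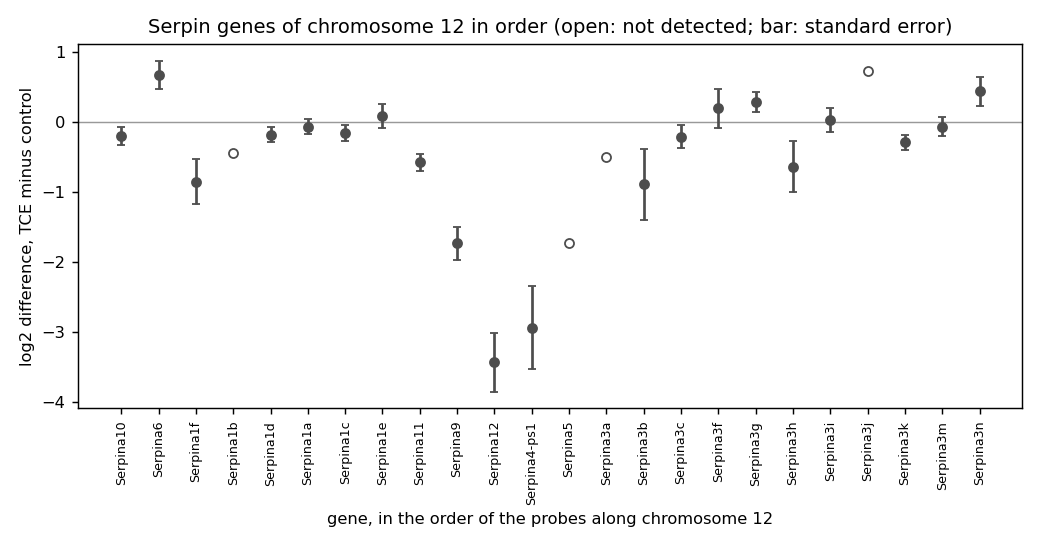
Log2 difference (TCE minus control) of the 24 serpin genes of chromosome 12 in the order of their probes, with the standard error of limma as bars and open circles for genes that were not detected. The 4 lowest points, Serpina9, Serpina12, Serpina4-ps1 and Serpina5, are neighbours, with Serpina5 not detected and Serpina12 not above background in TCE mice, so that its measured difference of -3.44 is not a precise size. Serpina11 beside them is at -0.58, and the other detected genes lie between -0.89 and 0.68.

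The 2 probes of Serpina11 cover nearly the same bases and differ at 4 positions, shown in capitals, in a window of 30 bases; they are printed because their values disagreed between mice.
Serpina11, probe with the higher signal: ccccctgcaTggcaggaccccTgTgctTca
Serpina11, second probe: ccccctgcaCggcaggaccccCgCgctGca
The second probe read 14.36, 14.22 and 13.38 in control and 13.94, 12.69 and 13.75 in TCE mice. Its groups overlapped, while those of the first probe did not, and its log2 fold change was -0.53 with a wider error (SE 0.40, adjusted p 0.546).

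None of the antitrypsin paralogs passed the threshold, and the log2 fold changes of all but Serpina1f were under 0.2 in size by the brighter probe. Under 75th percentile scaling 3 of these genes had larger negative values that did not pass either, -0.25 for Serpina1a, -0.34 for Serpina1c and -0.36 for Serpina1d. Serpina1 genes encode the antitrypsins, a group that includes inhibitors of neutrophil elastase and some of the most abundant serpins of plasma. Their probes share sequence, as a window of 30 aligned bases shows, with the positions that differ in any of the 3 in capitals.
Serpina1c: taaGaTgtcatccttccttctgaattgggt
Serpina1e: taaGaAgtcatccttccttctgaattgggt
Serpina1a: taaAaTgtcatccttccttctgaattgggt
Over the whole probe, Serpina1c and Serpina1e were identical at 56 of 58 aligned bases and Serpina1a and Serpina1c at 50 of 51. A transcript of 1 of these genes can thus bind the probes of the others, and the values of the paralogs are uncertain as values of single genes.

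Serpina1a read 18.78, 18.63 and 18.67 in control and 18.63, 18.72 and 18.55 in TCE mice. Serpina1c read 18.67, 18.78 and 18.78 in control and 18.46, 18.59 and 18.72 in TCE mice. Serpina1e read 18.50, 18.10 and 18.48 in control and 18.50, 18.23 and 18.63 in TCE mice. The groups overlapped for all 3 genes, with log2 fold changes of -0.06 for Serpina1a, -0.15 for Serpina1c and 0.09 for Serpina1e. The 95% intervals of the difference were -0.33 to 0.21 for Serpina1a, -0.44 to 0.13 for Serpina1c and -0.32 to 0.50 for Serpina1e, which leaves room for small changes of either sign. Quantile normalization gives the brightest probes of every array the same set of values. The value 18.78, for example, recurs for Serpina1a, Serpina1c and Alb in different mice. A change shared by the brightest probes would thus not be seen, and the intervals do not include this limit. The second probe of Serpina1e gave the opposite sign, with -0.18 (adjusted p 0.668), and that of Serpina1a gave -0.02.

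Serpina1d was lower in all 3 TCE mice by both of its probes. The brighter probe read 18.21, 18.30 and 18.28 in control and 18.11, 18.08 and 18.06 in TCE mice. The other, which crosses a splice junction, read 17.68, 17.68 and 17.60 in control and 17.29, 17.25 and 17.23 in TCE mice. The log2 fold changes were small, -0.18 (SE 0.10, adjusted p 0.425) and -0.39 (SE 0.10, adjusted p 0.125). Serpina1f, a more distant paralog, read 5.88, 6.40 and 5.49 in control and 5.48, 4.51 and 5.22 in TCE mice, with 1 of 3 TCE arrays well above background, a log2 fold change of -0.85 and an adjusted p of 0.247. The single probe of Serpina1b was not above background on any array.

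The Serpina3 paralogs did not pass the threshold either, and their values went both ways. Serpina3k, called contrapsin, read 18.37, 18.39 and 18.41 in control and 18.03, 18.10 and 18.18 in TCE mice. The groups were narrow and did not overlap, but the log2 fold change was only -0.29 (SE 0.11, adjusted p 0.231), and -0.47 (adjusted p 0.232) with 75th percentile scaling. Serpina3n, an acute phase serpin that inhibits granzyme B and cathepsin G, read 12.59, 12.52 and 12.14 in control and 13.16, 12.53 and 12.90 in TCE mice. Its log2 fold change was 0.44 (SE 0.21, adjusted p 0.332), and its groups overlapped by a narrow margin. Serpina3g, an intracellular inhibitor of lysosomal cathepsins, read 10.08, 10.25 and 10.41 in control and 10.47, 10.41 and 10.70 in TCE mice. Its groups almost touched, with control mouse 3 just below TCE mouse 2, and its log2 fold change was 0.29 (SE 0.14, adjusted p 0.354).

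Serpina3c read 13.62, 13.45 and 13.12 in control and 13.34, 13.01 and 13.22 in TCE mice. Serpina3m read 15.92, 15.94 and 15.68 in control and 15.82, 15.63 and 15.90 in TCE mice. Both overlapped between groups, with log2 fold changes of -0.21 for Serpina3c and -0.06 for Serpina3m. Serpina3h read 11.86, 12.004 and 11.27 in control and 10.36, 11.18 and 11.67 in TCE mice, where TCE mouse 1 was the lowest, and its log2 fold change was -0.64 (SE 0.36, adjusted p 0.419). Serpina3b, near background, read 5.86, 6.48 and 6.23 in control and 6.28, 4.21 and 5.41 in TCE mice, a spread wider than the difference of the means.

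Serpina3f and Serpina3i were also dim. The brighter probe of Serpina3f read 6.48, 6.79 and 6.49 in control and 6.17, 7.10 and 7.09 in TCE mice, and its log2 fold change of 0.20 changed sign with the normexp background correction. The second Serpina3f probe, placed by the annotation at chr12:105492556-105492615, beside the Serpina3h probe at chr12:105491733-105491792 rather than beside the first Serpina3f probe, gave 0.53 (adjusted p 0.306). Serpina3i read 5.44, 5.80 and 5.51 in control and 5.60, 5.36 and 5.87 in TCE mice, with a log2 fold change of 0.03 that changed sign under the 75th percentile scaling. Serpina3a and Serpina3j were not above background on any array.

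**Figure D4:**
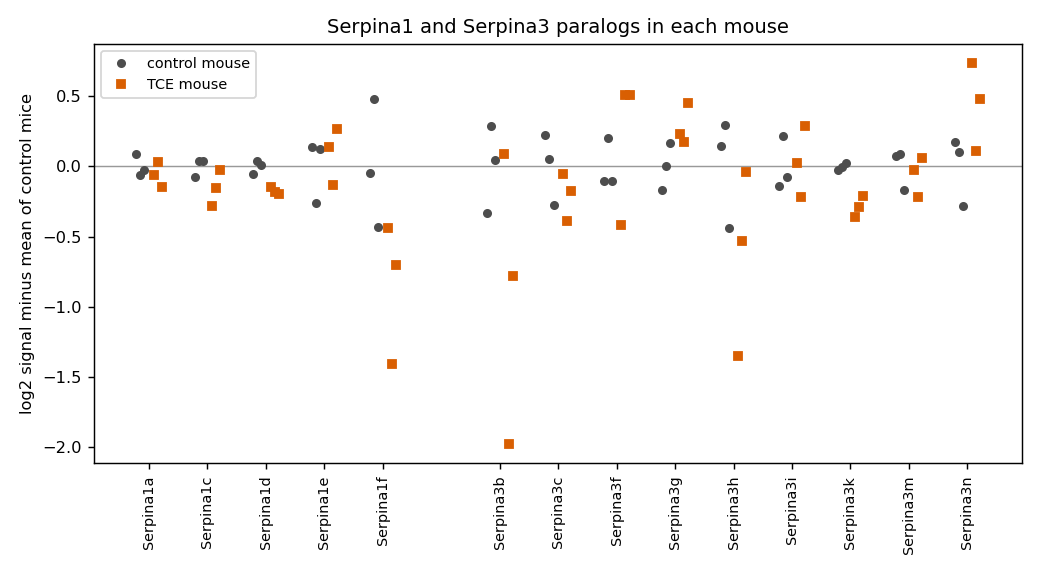
Log2 signal of each control mouse (grey circles) and TCE mouse (orange squares) minus the mean of the control mice, for the 5 detected Serpina1 and 9 detected Serpina3 paralogs. Most points lie within 0.5 of 0, Serpina1d and Serpina3k are lower in all 3 TCE mice, and single mice of Serpina1f, Serpina3b and Serpina3h lie more than 1 below.

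Shared sequence between members was counted over all pairs of serpin probes. In 13 pairs of probes of different genes 40 or more aligned bases were identical, and in 5 of these both probes were detected. In 1 pair, with 51 of 57 aligned bases identical, the Serpina3h probe was detected and the matching probe of Serpina3i was not above background on any array. Bases that differ are in capitals.
Serpina3h: cacaggGgtcaaaTtAaTtctaTgttgtgA
Serpina3i, second probe: cacaggAgtcaaaGtTaAtctaCgttgtgG
The value of Serpina3i above came from its other probe. The closest pair outside clade A was Serpinb6a and Serpinb6c, with 55 of 59 aligned bases identical to the dimmer of the 2 Serpinb6c probes. The windows below are of that pair.
Serpinb6a: tgcaatgGcaATtatgaaataaagggcttT
Serpinb6c, dimmer probe: tgcaatgAcaGCtatgaaataaagggcttA

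Of clade B, 27 genes were on the array and 6 were detected: Serpinb1a, Serpinb6a, Serpinb6b, Serpinb6c, Serpinb8 and Serpinb9. None passed the threshold. Serpinb1a, which inhibits the elastase, cathepsin G and proteinase 3 of neutrophils, read 6.31, 5.84 and 5.69 in control and 6.69, 6.70 and 7.43 in TCE mice. Its groups did not overlap, with a log2 fold change of 0.99 (SE 0.26, adjusted p 0.131), and 0.59 (adjusted p 0.0758) with normexp. Neutrophil markers were detected for 5 of 10, and none passed the threshold. Their summed intensity was 11800 to 25700 in control and 19600 to 29300 in TCE mice. Most of that sum came from a single gene, the brightest of the list, whose groups overlapped. The part of neutrophils was not tested.

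Serpinb6a, an inhibitor of cathepsin G inside cells, read 11.03, 10.99 and 10.75 in control and 10.51, 11.01 and 10.99 in TCE mice. The brighter probe of Serpinb6c, which shares 39 of 42 aligned bases with the Serpinb6a probe, read 10.76, 10.47 and 10.30 in control and 10.26, 10.71 and 10.62 in TCE mice. By these probes TCE mouse 1 was the lowest TCE mouse and the groups overlapped, with log2 fold changes of -0.09 for Serpinb6a and 0.02 for Serpinb6c. The dimmer Serpinb6c probe, shown above, read 8.91, 7.62 and 8.69 in control and 7.96, 8.46 and 8.89 in TCE mice, also with overlapping groups, and its log2 fold change was 0.03 (adjusted p 0.981). Serpinb6b had a log2 fold change of 0.82 (SE 0.27, adjusted p 0.192), and Serpinb9, the granzyme B inhibitor, -0.06.

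Serpinb8, known as a cytoplasmic inhibitor of furin, read 15.67, 15.81 and 15.36 in control and 14.75, 15.19 and 14.91 in TCE mice. The groups did not overlap, with a log2 fold change of -0.66 (SE 0.18, adjusted p 0.130). Its only probe contains a simple repeat, in capitals in the window below, and whether other transcripts bind it was not tested.
Serpinb8: gtgtaTGTGTGTGTGTGTGcctctgtgtgt

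The other 21 clade B genes on the array, among them Serpinb2, Serpinb5, Serpinb7 and the whole Serpinb3 and Serpinb10 to Serpinb13 groups, were not detected. In all, 27 serpin genes were not detected, and 20 of these were not above background on any array. The other 7 were above background on 1 or 2 arrays of a group: Serpina5, Serpinb1c, Serpinb3d, Serpinb6e, Serpinb9b, Serpinb9f and Serpini1. Serpini1, neuroserpin, read 7.14, 6.80 and 3.07 in control and 3.33, 2.69 and 2.51 in TCE mice, where 2 control arrays and 0 TCE arrays were above background. Control mouse 3 was as low as the TCE mice, so its groups overlapped. Serpini2 was not above background on any array.

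Among the inhibitors of coagulation and fibrinolysis, 0 passed the threshold by limma. Antithrombin (Serpinc1), which blocks thrombin and factor Xa, read 17.61, 17.82 and 17.77 in control and 17.31, 17.53 and 17.48 in TCE mice. The groups did not overlap, with a log2 fold change of -0.29 (SE 0.12, adjusted p 0.289) and a 95% interval of -0.58 to 0.01. With 75th percentile scaling it was -0.45 (adjusted p 0.276). Heparin cofactor II (Serpind1), a thrombin inhibitor, read 15.95, 15.95 and 15.73 in control and 15.96, 14.98 and 15.48 in TCE mice, with overlapping groups and a log2 fold change of -0.41 (SE 0.25, adjusted p 0.456). Serpina10, which inhibits factor Xa together with protein Z, had a log2 fold change of -0.20 (adjusted p 0.473). Its groups almost touched, and its second probe overlapped between groups, with -0.08 (adjusted p 0.791). The antiplasmin Serpinf2 read 16.29, 16.48 and 16.14 in control and 16.14, 16.06 and 16.20 in TCE mice. Its groups overlapped, with a log2 fold change of -0.17 (adjusted p 0.540).

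Protease nexin-1 (Serpine2), an inhibitor of thrombin and urokinase at cell surfaces, read 5.26, 5.60 and 5.69 in control and 4.80, 4.08 and 4.56 in TCE mice. None of the TCE arrays was well above background, which gives a signal at least 1.62-fold lower in TCE mice under quantile normalization. The adjusted p of 0.083 by limma belongs to the measured log2 fold change of -1.03 and not to this bound. With normexp, whose offset of 50 shrinks the differences of dim probes, the log2 fold change was -0.35 (adjusted p 0.155), smaller than that bound.

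Serpinf1, Serping1 and the collagen chaperone Serpinh1 differed by less than 0.2 on the log2 scale by the probe that stands for each gene. Serpinf1, pigment epithelium-derived factor, read 16.12, 15.95 and 15.85 in control and 15.83, 15.76 and 15.83 in TCE mice. Its log2 fold change was -0.17 (adjusted p 0.515). The second Serpinf1 probe gave a log2 fold change of -0.22, with overlapping groups. The complement C1 inhibitor (Serping1) read 16.40, 16.05 and 16.16 in control and 16.48, 16.17 and 16.31 in TCE mice, with overlapping groups and a log2 fold change of 0.12 (adjusted p 0.709). HSP47 (Serpinh1), which folds collagen in the endoplasmic reticulum, read 8.40, 8.31 and 8.53 in control and 8.57, 8.53 and 8.22 in TCE mice, with overlapping groups. Its log2 fold change was 0.03, with a 95% interval of -0.32 to 0.37.

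The proteases that serpins trap, or that share their cascades, were read from a list in which 32 of 40 genes on the array were detected. The median log2 fold change was -0.17, with 24 below and 8 above 0, against 46.9% of all detected genes below 0. By limma 7 of the 32 had an unadjusted p under 0.05, against 19.1% of all detected genes. The threshold was passed by 1 gene, against 1.30% of all detected genes that were past it and higher. It was Prtn3, the neutrophil serine protease proteinase 3, which rose. Its signal was 3.98, 4.43 and 4.63 in control mice, where 0 of 3 arrays were well above background, and 6.44, 5.80 and 6.37 in TCE mice. Prtn3 thus counts as detected only through the TCE mice, where it was at least 2.68-fold higher. The adjusted p of 0.0234 by limma belongs to the measured log2 fold change of 1.85, which rests on control values not well above background. In the list of protease inhibitors outside the serpin family 24 of 33 genes were detected and 0 passed the threshold by limma, while 7 of the 24 had an unadjusted p under 0.05, against 19.1% of all detected genes, and the median was -0.01.

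Of the receptors that clear serpin and protease complexes and the machinery that folds and exports serpins, 17 of 18 genes were detected. Their median was -0.13, and 4 of the 17 had an unadjusted p under 0.05 by limma, against 19.1% of all detected genes. The threshold was passed by 1 gene, against 1.30% of all detected genes that were past it and higher. Vldlr, a lipoprotein receptor that also takes up complexes of serpins with proteases, rose. It read 5.99, 5.71 and 5.43 in control and 7.39, 8.16 and 8.10 in TCE mice, with a log2 fold change of 2.17 (SE 0.25, adjusted p 0.0155).

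RefSeq promoters on GRCm38.p6 were at hand for 51 of the 62 genes, and those of Serpina7 and Serpina12 are shown because these genes had the largest rise and fall. Each line gives the 250 bases before the listed start, on the strand of the gene, with capitals for matches to 5 short motifs searched on both strands.
Serpina7, chrX:139085237-139085486, minus strand, first of 2 listed starts: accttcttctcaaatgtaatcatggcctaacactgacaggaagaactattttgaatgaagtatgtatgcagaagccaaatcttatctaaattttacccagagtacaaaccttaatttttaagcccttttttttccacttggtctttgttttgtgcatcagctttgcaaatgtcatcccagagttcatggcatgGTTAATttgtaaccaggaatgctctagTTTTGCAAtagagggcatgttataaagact
Serpina12, chr12:104044444-104044693, minus strand: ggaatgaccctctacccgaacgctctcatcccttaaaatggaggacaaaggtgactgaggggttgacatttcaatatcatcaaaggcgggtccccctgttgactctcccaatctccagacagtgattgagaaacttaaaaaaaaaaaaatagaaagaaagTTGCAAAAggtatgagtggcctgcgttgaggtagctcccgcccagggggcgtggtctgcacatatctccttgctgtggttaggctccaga
The capitals in Serpina7 are GTTAAT, a core of HNF1 sites that starts 57 bases before the listed start, and a match to TTGCNNAA, a core of C/EBP sites, that starts 30 bases before it. Serpina12 held a match to TTGCNNAA that starts 90 bases before its listed start. Neither window held AGGTCA (the core that nuclear receptors bind), CACGTG (an E-box) or TTCNNNGAA (a core of STAT sites).

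Of 60 serpin promoters of the 51 genes, 12 held GTTAAT, 15 held TTGCNNAA and 18 held AGGTCA on either strand. Over all 32851 promoters of the table the shares were 6.43% for GTTAAT, 9.56% for TTGCNNAA and 14.0% for AGGTCA. TTCNNNGAA was in 10 of the 60 serpin promoters and 7.02% of all promoters, and CACGTG was in 0 serpin promoters and 6.02% of all promoters. None of the 5 motifs contains another, but a match may share bases with another match. These are matches of letters in related promoters of 1 gene family, and no binding was measured.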

How the data were processed

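Liver RNA of 3 control and 3 TCE mice was measured on single-colour arrays. The authors extracted spots with Agilent Feature Extraction 10.7.1.1 and deposited the processed intensity, the mean and background intensity and flags of each spot. The authors also deposited a table of normalized log2 means of each group, used for annotation, together with per-array flags in 6 columns that were not used.

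Outlier spots were left out. The log2 of the processed intensity was averaged over the spots of a probe and quantile normalized between arrays, the normalization that the study's methods name. Group means lay within 0.01 of the deposited log2 means for 99.953% of 55681 probes. The 22731 detected probes were fitted with limma 3.58.1 in R 4.3.3 (lmFit, eBayes, group as the only factor). All 62 gene IDs matched RefSeq. The procedure was tested on simulated data.

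Members were described by a rule that allowed any serpin to be named, with values in every mouse for those past a threshold, the brightest of a clade and the Serpina1 and Serpina3 paralogs, and non-members only from the lists. Values in every mouse of Serpina5, Serpina6, Serpina11, Serpinb1a, Serpinb6a, Serpinb6c, Serpinf1, Serpini1 and Ttr lie outside this rule and were added after they were seen. A member and some marker genes are counted but not reported here by name. Members and lists were chosen with earlier results of these data known. Each mouse is 1 animal, and the number of arrays limits precision. Alternatives covered scaling, background correction, filters, blocks, the variance model, the methods' t-test, probe rules and single mice left out.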

Additional observations from a re-analysis of the deposited data

How the results depend on the processing

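Serpina7 was past the threshold and higher under every scaling, background correction and left-out mouse. The counts past the threshold were 0 higher and 0 lower, and 0 serpin genes had an adjusted p of 0.05 or less, without the filter on dim probes (more probes tested), with the replicate number as a block and with the methods' t-test after adjustment. With that replicate block the adjusted p by limma was 0.0828 for Serpina7, 0.0879 for Serpina9 and 0.0931 for Serpina12. No pairing by replicate number was seen, as the deviations of same-numbered mice correlated at 0.09, 0.007 and -0.092. Such correlations cannot exclude a pairing. The lower count was 1 when only probes above background on all arrays were tested, which drops Serpina12, and 4 by the methods' t-test without adjustment, which put 12 genes at a p of 0.05 or less at any fold. With the slide as a block, the same fit as without control mouse 1, the lower count was 0 and 1 gene had an adjusted p of 0.05 or less. limma-trend put 5 genes there, adding Serpina4-ps1 and Serpina11. With single mice left out the higher count was 1, the lower count 0 to 2 and the number at an adjusted p of 0.05 or less 1 to 3. Without the filter all 62 genes were tested. The median log2 fold change of serpin genes was -0.076 with normexp, -0.0618 without the filter, -0.075 with probes above background on all arrays, -0.0929 with the slide block and -0.165 to -0.0878 with single mice left out. Log2 fold changes near 0 turned sign. Serpina1e was -0.107 with 75th percentile scaling, -0.076 with normexp and -0.0449 as a mean of its probes, Serpina3i was -0.009 with 75th percentile scaling and -0.0397 with the slide block, and with normexp Serpina3f was -0.0416 and Serpinb9 0.012. With single mice left out Serpina1e ranged from -0.037 to 0.203, Serpina3i from -0.0975 to 0.155, Serpina3m from -0.145 to 0.0158, Serpinb6a from -0.174 to 0.0737, Serpinb6c from -0.0846 to 0.154, Serpinb9 from -0.42 to 0.12 and Serpinh1 from -0.0388 to 0.135. With normexp and its offset of 50 the log2 fold change of the dim Serpina12 was -1.27, with an adjusted p of 0.00874.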
